A study of Mus musculus with 2 samples.

Results

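The mitosis, kinetochore and spindle genes are a set of 45 genes taken by symbol from the deposited gene table, and all 45 were found among its 23235 genes. They cover the mitotic cyclins and kinases, the spindle checkpoint, the kinetochore, the mitotic kinesins, the partners and substrates of the anaphase-promoting complex and the proteins of the spindle midzone and the cleavage furrow. They were measured in APL#1 and APL#2, a pair of murine acute promyelocytic leukaemias that carry the PML-RAR fusion, and the series describes the pair as clones with unlike frequencies of leukaemia-initiating cells. Each leukaemia arose in 1 mouse of the C57BL/6-Ly5.2 strain and is represented by 1 RNA library of CD45.2+ cells, which were recovered on magnetic columns from the spleens of non-irradiated C57BL/6-Ly5.1 hosts. Hosts received 2000000 cells of APL#1 or 200000 cells of APL#2, so dose and leukaemia cannot be told apart. Both samples carry the labels of an age of 10 weeks, the genotype PML-RAR KI APL, the source mCG-PML-RAR transgenic mice and no treatment, and both titles carry VEH. The labels explain neither mCG nor VEH. With 1 library per leukaemia no test between the leukaemias was possible, and no difference below has a replicate check.

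Cells enter mitosis when cyclin B activates the kinase CDK1. The spindle checkpoint then holds chromosomes back until kinetochores are attached to microtubules, after which the anaphase-promoting complex with CDC20 marks securin and cyclin B for destruction, sister chromatids part and the cell divides at the midzone. RNA of most of these genes is made late in the cell cycle, and in healthy bone marrow promyelocytes are among the last granulocyte stages that still divide. Their promoters often carry the cell cycle genes homology region, or CHR, which the MuvB complex reads, downstream of CCAAT boxes, which the factor NF-Y reads.

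Mitosis genes were lower in APL#2 in nearly every case. Levels are in FPKM, which is corrected for transcript length and library depth, so genes of unlike length can be compared. FPKM was lower in APL#2 for 43 of the 45 genes, where 69% of the 9129 genes whose mean FPKM reached 0.2 were lower. The exceptions were Incenp and Kif11, both on chromosome 19. The median ratio of APL#2 to APL#1 was 0.531 over the 45 genes, with an interquartile range of 0.447 to 0.643. Over the 4100 genes whose mean FPKM reached 1, called measured below, the median ratio was 0.835 and the range 0.689 to 1.04. Summed FPKM of the 45 genes was 171.2 in APL#1 against 97.1 in APL#2 (ratio 0.567), and it was 0.551 without the 3 most abundant genes, Stmn1, Ube2s and Ube2c. In RNA from bulk cells, fewer dividing cells and less RNA per dividing cell cannot be told apart.

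The shift was moderate for single genes and had a common direction. On the scale of log2(FPKM + 1), which understates the difference of low genes, 3 of the 45 genes were at least 2-fold lower in APL#2 (Mad2l1, Ube2c and Spc24), against 1.15% of genes whose mean reached 0.2 and 2.44% of measured genes. None was at least 2-fold higher, against 2.1% of measured genes. At least 1.5-fold lower on that scale were 16 of the 45, against 5.33% and 10.1%. By the plain ratio of FPKM, 17 of the 45 were at 0.5-fold or below, against 7.85% of genes whose mean reached 0.2 and 6.83% of measured genes. Relative to the all-gene median of -0.17 (log2), 40 of the 45 genes lay below it, where 37.1% of the genes whose mean reached 0.2 and 50% of measured genes did. The median of the 45 lay 0.33 below the all-gene median (log2 -0.33), and that of the 32 measured members 0.41 below it (log2 -0.41). The other 13 members had a mean FPKM under 1.

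**Figure D1:**
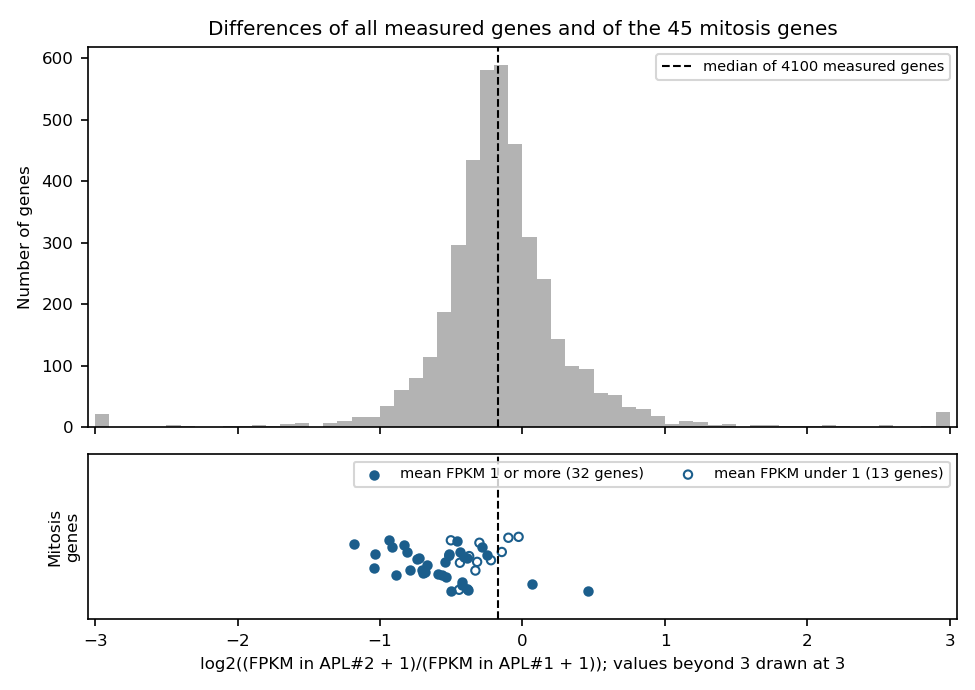
Upper panel: number of measured genes (vertical axis) by their log2(FPKM + 1) difference, APL#2 minus APL#1 (horizontal axis), with values beyond 3 drawn at 3; the dashed line is their median of -0.17. Lower panel: the 45 mitosis genes on the same axis, filled for the 32 with a mean FPKM of at least 1 and open for the other 13, with vertical position only to separate points; 40 lie to the left of the line.

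The error on these values is known only in part. The fragments behind a value were estimated from the steps between low values and ranged from about 36.5 (Bub1 in APL#2) to about 2272 (Mki67 in APL#1), with medians of 309.5 in APL#1 and 173.2 in APL#2. Approximate 95% intervals for counting error alone lay below a ratio of 1 for 40 of the 45 genes and above it for 1 (Incenp). They lay on both sides of it for Kif11, Cenpf, Cenpm and Kif23. Below the all-gene median ratio of 0.835 lay the intervals of 37 of the 45. These intervals cover no variation between mice or libraries. None were computed for genes outside the set, so no background share stands beside these counts. The authors' deposited table has a wider error: the standard error that its test statistics imply had a median of 0.98 (log2) over the 45 genes. In the authors' deposited table no member had a p-value under 0.05, against 1.56% of measured genes, and the lowest was 0.0783 for Mad2l1. Its q-values were at least 0.999997 for all 45.

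Promoters of the mitosis genes shared the letters of both elements. RefSeq promoters of build GRCm38.p6, each from 250 bases before to 50 bases after the annotated start, were at hand for 38 of the 45 genes. CCAAT on either strand was in 28 of the 38 (73.7%), against 37.9% of 27025 promoters of all genes and 40.9% of 2946 promoters of measured genes. A CHR, searched as TTTGAA or TTCGAA on either strand, was in 30 (78.9%), against 19.4% of all promoters. Both were in 26 (68.4%), against 7.70% of all promoters and 6.59% of those of measured genes. Matches overlap in places, as in Ube2c, where a CCAAT box on each strand shares bases with the other.

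Shown here are the 6 most abundant members whose promoter holds both, from 200 bases before to 30 bases after the start, because they let the arrangement be seen. Each is written on the strand of its gene, with every match to the CCAAT and CHR letters given above, read on either strand, in capitals. Cdca3 has its CHR 30 bases after the start, just past the stretch shown.
Ube2c: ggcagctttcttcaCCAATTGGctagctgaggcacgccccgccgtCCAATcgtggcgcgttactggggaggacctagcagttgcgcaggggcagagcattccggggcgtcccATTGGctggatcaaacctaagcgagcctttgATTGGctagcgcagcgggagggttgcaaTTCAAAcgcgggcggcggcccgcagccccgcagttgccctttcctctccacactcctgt
Mki67: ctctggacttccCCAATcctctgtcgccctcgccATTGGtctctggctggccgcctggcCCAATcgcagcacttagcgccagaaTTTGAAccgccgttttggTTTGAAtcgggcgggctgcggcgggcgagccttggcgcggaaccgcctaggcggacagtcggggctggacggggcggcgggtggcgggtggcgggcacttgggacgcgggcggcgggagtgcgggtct
Hmmr: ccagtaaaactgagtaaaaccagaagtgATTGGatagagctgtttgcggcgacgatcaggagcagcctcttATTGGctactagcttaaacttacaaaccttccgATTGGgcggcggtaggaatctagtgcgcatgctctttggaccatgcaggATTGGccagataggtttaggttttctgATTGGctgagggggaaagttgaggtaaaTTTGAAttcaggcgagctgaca
Cdca3: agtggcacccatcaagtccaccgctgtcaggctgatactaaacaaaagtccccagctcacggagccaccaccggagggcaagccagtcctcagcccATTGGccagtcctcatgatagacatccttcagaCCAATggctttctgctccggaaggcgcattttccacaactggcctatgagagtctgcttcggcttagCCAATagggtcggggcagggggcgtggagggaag
Cdca8: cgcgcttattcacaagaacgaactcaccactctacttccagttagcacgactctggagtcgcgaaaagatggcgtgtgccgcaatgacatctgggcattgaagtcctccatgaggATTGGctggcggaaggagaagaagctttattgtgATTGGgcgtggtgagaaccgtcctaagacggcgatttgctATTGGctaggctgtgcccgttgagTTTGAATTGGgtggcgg
Cdc20: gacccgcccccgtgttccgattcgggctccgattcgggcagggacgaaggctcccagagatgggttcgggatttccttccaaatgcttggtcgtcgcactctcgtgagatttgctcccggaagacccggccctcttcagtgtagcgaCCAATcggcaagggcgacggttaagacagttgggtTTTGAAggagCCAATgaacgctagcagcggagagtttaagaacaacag
The Ube2c stretch is chr2:164769729-164769958 on the plus strand. The Mki67 stretch is chr7:135716350-135716579 on the minus strand. The Hmmr stretch is chr11:40733408-40733637 on the minus strand. The Cdca3 stretch is chr6:124829976-124830205 on the plus strand. The Cdca8 stretch is chr4:124936888-124937117 on the minus strand. The Cdc20 stretch is chr4:118437314-118437543 on the minus strand. All 6 coordinates are GRCm38.p6, unlike the positions of genes in the deposited table, which are mm9.

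Most CHR matches lay close to the start site, although those of Mki67 began 116 and 98 bases before it. In Ube2c the CHR began 29 bases before the start with all of the CCAAT boxes upstream, and in Cdc20 it began 18 bases before the start between its CCAAT boxes, while in Hmmr and Cdca8 it began 8 and 13 bases after the start. A CHR began within 50 bases of the start in 26 of the 38 promoters (68.4%), against 5.29% of all promoters and 3.36% of those of measured genes, a window chosen after the positions were seen. CCAAT boxes 30 to 35 bases apart, a spacing also chosen after the positions were seen, occurred in 9 of the 38 promoters (23.7%), against 1.72% of all promoters and 3.67% of those of measured genes. The search found neither element in the windows of Mad2l1, Birc5, Tacc3, Pttg1, Nuf2 and Nusap1. The median ratio of APL#2 to APL#1 was 0.44 over these 6 genes and 0.539 over the 26 with both elements.

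**Figure D2:**
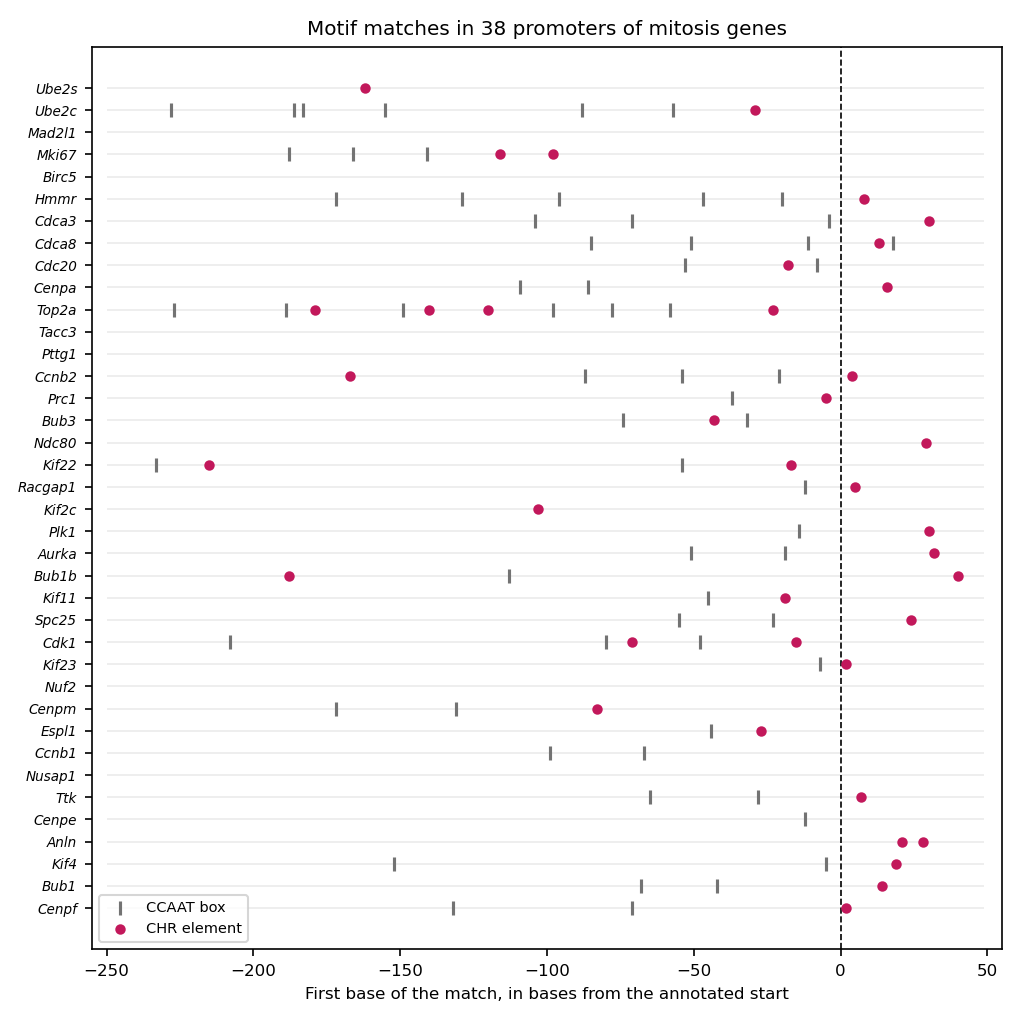
Positions of CCAAT boxes (grey bars) and CHR elements (red points) in the 38 promoters of mitosis genes, in bases from the annotated start (dashed line); rows are genes in order of falling mean FPKM, and a match is placed at its first base. CHR elements gather within 50 bases of the start in 26 of the promoters.

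Genes outside the set that have the same letters were compared as a description, chosen after the data were seen. Among 175 measured genes outside the set with both elements, the median ratio was 0.819 and 75.4% were lower in APL#2. Among 1012 with CCAAT only, the median ratio was 0.817 and 75.5% were lower. Among 216 with a CHR only, these values were 0.884 and 65.3%. Among 1517 with neither, the median ratio was 0.846 and 71.6% were lower. The 38 with CCAAT and a CHR within 50 bases of the start had a median ratio of 0.702, and 78.9% were lower. A match in a promoter is a description of its letters and was not tested for factor binding.

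The general marker of cycling cells and the chromosome topology gene were both lower in APL#2. For this role and each one below, the background is 69% lower among genes whose mean FPKM reached 0.2. Mki67, which encodes the Ki-67 antigen of proliferating cells, was at 4.39 FPKM in APL#1 against 3.07 in APL#2, with a ratio of 0.698. Top2a, the topoisomerase that untangles chromosomes before they part, was at 3.02 and 1.77 FPKM, a ratio of 0.588. Both RNAs were present in both libraries, and Mki67 was nearer to the all-gene median ratio of 0.835 than most members.

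All of the mitotic cyclins and their kinase were lower in APL#2. Ccnb2, a B-type cyclin, was at 2.80 FPKM in APL#1 and 1.68 in APL#2. Ccnb1, the main B-type cyclin of mitotic entry, was at 0.886 and 0.444 FPKM, a ratio of 0.501. Ccna2, the cyclin of S phase and early mitosis, was at 1.598 and 1.13 FPKM, and Cdk1, the kinase they activate, at 1.38 and 0.731. Ccna2 had the ratio nearest to 1 of the 4, at 0.709, and the table gives its locus together with the neighbouring gene Exosc9.

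The Polo and Aurora A kinases followed the same direction. Plk1, the Polo-like kinase of centrosome maturation and cytokinesis, was at 1.95 FPKM in APL#1 against 0.785 in APL#2, with a ratio of 0.402. Aurka, which encodes Aurora A of the spindle poles, was at 1.67 and 0.970 FPKM, and Tpx2, its activator on microtubules, at 2.02 and 1.07. The ratios of Aurka and Tpx2, 0.582 and 0.532, lay closer to the median of the set than that of Plk1.

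In the chromosomal passenger complex 3 of 4 genes were lower in APL#2, and Incenp on chromosome 19 was higher. This complex corrects faulty attachments at centromeres and has Aurora B as its kinase, INCENP as its scaffold, and survivin and borealin as its targeting subunits. Aurkb, for Aurora B, was at 3.50 FPKM in APL#1 against 1.36 in APL#2, with a ratio of 0.387. Birc5, for survivin, was at 4.86 and 2.11 FPKM, and Cdca8, for borealin, at 4.28 and 1.97. These 3 genes were 2.58-fold, 2.30-fold and 2.18-fold higher in APL#1. Incenp went the other way, from 2.82 FPKM in APL#1 to 4.25 in APL#2, with a ratio of 1.505. Birc5 RNA was therefore 1.72 times that of Incenp in APL#1 and 0.497 times in APL#2.

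Spindle checkpoint genes had the lowest median plain ratio of the 9 roles, 0.341 over 5 genes, while relative to all genes on the log2(FPKM + 1) scale the passenger complex was lowest (-0.70, beside -0.27 for the checkpoint). Mad2l1, whose protein MAD2 blocks CDC20 until kinetochores are attached, was at 5.58 FPKM in APL#1 and 1.89 in APL#2. It was the member with the largest difference on the log2(FPKM + 1) scale (-1.19), and it was 2.95-fold higher in APL#1. Bub1b, which encodes BUBR1 of the same inhibitory complex, was at 1.87 and 0.639 FPKM, a ratio of 0.341. Bub1, a kinase that recruits checkpoint proteins to kinetochores, was at 0.622 and 0.192 FPKM, the lowest plain ratio of the set at 0.308. Both Bub1 and Bub1b lie in a part of chromosome 2 whose genes were lower as a whole, as described further on. Bub3, the adaptor of both, was at 2.51 and 1.62 FPKM, and Ttk, the MPS1 kinase that starts checkpoint signalling, at 0.777 and 0.425. Relative to measured genes within 10 Mb the checkpoint was not the lowest role. Its median ratio was 0.708, beside 0.554 for the passenger complex.

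Partners and substrates of the anaphase-promoting complex held 2 of the 3 most abundant members. Ube2c, the ubiquitin-conjugating enzyme that starts chains for the complex, was at 20.2 FPKM in APL#1 against 9.27 in APL#2, with a ratio of 0.460. Ube2s, the enzyme that lengthens those chains, was at 20.3 and 15.4 FPKM, a ratio of 0.755. The 2 RNAs were thus near equal in APL#1, whereas Ube2s stood at 1.66 times Ube2c in APL#2. Cdc20, the activator of the complex in mitosis, was at 3.96 and 1.68 FPKM, a ratio of 0.424. The table gives its locus together with Elovl1.

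The genes of chromatid separation differed among themselves. Pttg1, for securin, was at 2.57 FPKM in APL#1 against 2.00 in APL#2, with a ratio of 0.777. Espl1, for the protease separase that securin holds in check, was at 0.906 and 0.471 FPKM. Cdca3, a trigger of mitotic entry that the complex degrades, was at 3.73 and 2.53 FPKM.

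Kinetochore genes were all lower in APL#2, with ratios from 0.365 to 0.9197. The 4 subunits of the NDC80 complex, which grips microtubule ends, had ratios between 0.365 and 0.561. Of these Spc24 was the most abundant, at 9.64 FPKM in APL#1 and 4.19 in APL#2. Ndc80 was at 2.13 and 1.196 FPKM, Spc25 at 1.56 and 0.569, and Nuf2 at 1.18 and 0.529. Although the proteins act in one complex, Spc24 RNA was 6.19 times that of its partner Spc25 in APL#1 and 7.38 times in APL#2. Cenpa, the histone variant that marks centromeres, was at 2.87 and 1.95 FPKM. Cenpe, a motor of kinetochores, was at 0.765 and 0.404 FPKM. Cenpf (0.304 and 0.280 FPKM), a large protein of the outer kinetochore, and Cenpm (0.857 and 0.734 FPKM), a centromere protein, differed least among the kinetochore genes. Their counting intervals included a ratio of 1.

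Among kinesin motors, 5 of 6 were lower in APL#2, where 69% of genes whose mean FPKM reached 0.2 were lower. Kif22, a chromosome arm motor, was at 2.23 FPKM in APL#1 and 1.03 in APL#2, and Kif2c, which takes microtubules apart at centromeres, at 1.959 and 0.997. Kif20a, a motor of cytokinesis, was at 1.09 and 0.539 FPKM. The table gives its locus together with Brd8 and Cdc23, and its implied standard error in the authors' deposited table was the widest of the set, 1.90 (log2). Kif4, a motor of chromosomes and midzone on chromosome X, was at 0.640 and 0.330 FPKM, and Kif23, of the centralspindlin complex, at 0.967 and 0.778. Kif11, the motor that pushes spindle poles apart, was at 1.19 FPKM in APL#1 against 1.29 in APL#2, with a ratio of 1.09 with a counting interval of 0.930 to 1.27.

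Spindle and cytokinesis genes were all lower in APL#2, with ratios from 0.381 to 0.642. Stmn1, for stathmin, which destabilises microtubules, was the most abundant member, at 31.7 FPKM in APL#1 and 17.9 in APL#2. Hmmr, a spindle assembly factor, was at 4.23 and 2.26 FPKM, and Tacc3, which links microtubules of the spindle, at 3.12 and 1.47. Prc1, which bundles midzone microtubules, was at 2.82 and 1.54 FPKM. Racgap1, the partner of Kif23 in centralspindlin, was at 2.17 and 0.955 FPKM, a ratio of 0.439, whereas that of Kif23 was 0.805. Anln, for anillin of the cleavage furrow, was at 0.657 and 0.422 FPKM. Nusap1, a spindle-associated protein, was at 0.907 and 0.346 FPKM; it lies in the same part of chromosome 2 as Bub1, and the table gives its locus together with Oip5.

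**Figure D3:**
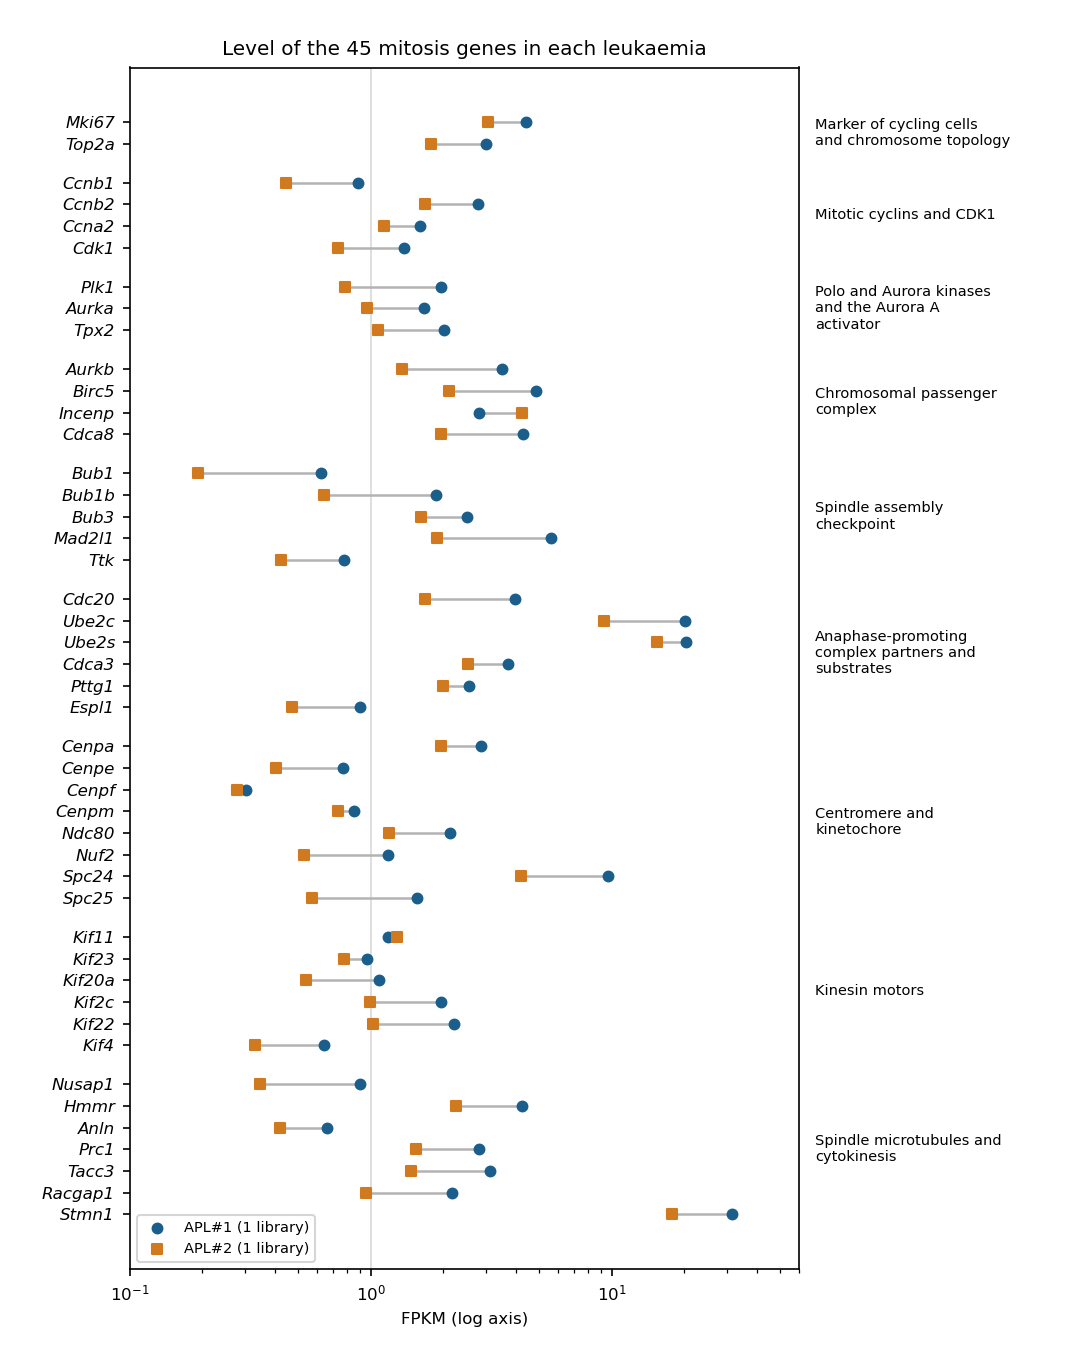
FPKM on a log axis (horizontal) of each of the 45 mitosis genes, grouped by role, in APL#1 (circles) and APL#2 (squares), 1 library each and so without error bars; the grey line joins the libraries and the pale vertical line marks FPKM 1. The square lies to the left of the circle for 43 genes and to the right for Incenp and Kif11.

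The order of the members by level was much the same in both libraries. Spearman's rho between the libraries was 0.94 over the 45 genes, which share the libraries and their scaling. The ratio did not follow the level: its rho with mean FPKM was 0.02 over the same 45 genes.

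A few members lay among neighbours with ratios far from the all-gene median, on chromosomes 2, 6 and 19. Over all 45 members Spearman's rho between a gene's ratio and that of its neighbours was 0.25, a description only. Each gene was set against the measured genes outside the set within 10 Mb to each side, 9 to 94 genes per member. Incenp (mm9 chr19:9946787-9974023) and Kif11 (mm9 chr19:37450893-37496349) had neighbours with median ratios of 1.58 and 1.65. Relative to these neighbours Incenp stood at 0.951 and Kif11 at 0.658, so by plain ratio both members with higher FPKM in APL#2 lay below the genes around them. On the log2(FPKM + 1) scale Incenp lay above its neighbours by 0.02 and Kif11 stayed below.

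Genes of a stretch of chromosome 2 showed the opposite. Spc25 (mm9 chr2:69031952-69044247), Bub1b (mm9 chr2:118423947-118467328), Nusap1 (mm9 chr2:119435268-119475896) and Bub1 (mm9 chr2:127625936-127657595) had ratios of 0.308 to 0.381. Their neighbours had median ratios of 0.413 to 0.464, and relative to these the 4 genes stood at 0.708 to 0.885. On the log2(FPKM + 1) scale only Bub1b stayed below its neighbours (-0.06). Bub1, Nusap1 and Spc25 lay above theirs by 0.37, 0.24 and 0.04. Because this scale compresses low genes, it understates the fall of Bub1 and Nusap1 beside more abundant neighbours. At 0.622 FPKM in APL#1, Bub1 would have stayed above its neighbours' median of -0.82 even with no RNA in APL#2. Of the other chromosome 2 members, Aurka, Tpx2 and Ube2c had neighbours at 0.823 to 0.824, close to the all-gene median ratio. Mad2l1 (mm9 chr6:66485462-66490985) had neighbours at 0.872 and stood at 0.389 relative to them. Cdca3, also on chromosome 6, had neighbours at 1.18, and relative to these it stood at 0.574.

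The lower level of the set was present with these chromosomes left aside. Of 34 members on 13 chromosomes other than 2, 6 and 19, all 34 were lower in APL#2, with a median ratio of 0.532 and a range of 0.387 to 0.9197. Over all chromosomes 69% of genes whose mean FPKM reached 0.2 were lower. No such share was computed with chromosomes 2, 6 and 19 left aside. By plain ratio 42 of the 45 members lay below their neighbours, where 50.3% of measured genes lay below theirs, and the median relative to neighbours was 0.653. On the log2(FPKM + 1) scale, on which low genes are compressed, 38 of 45 did so, against 50.3%, with a median of -0.32.

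**Figure D4:**
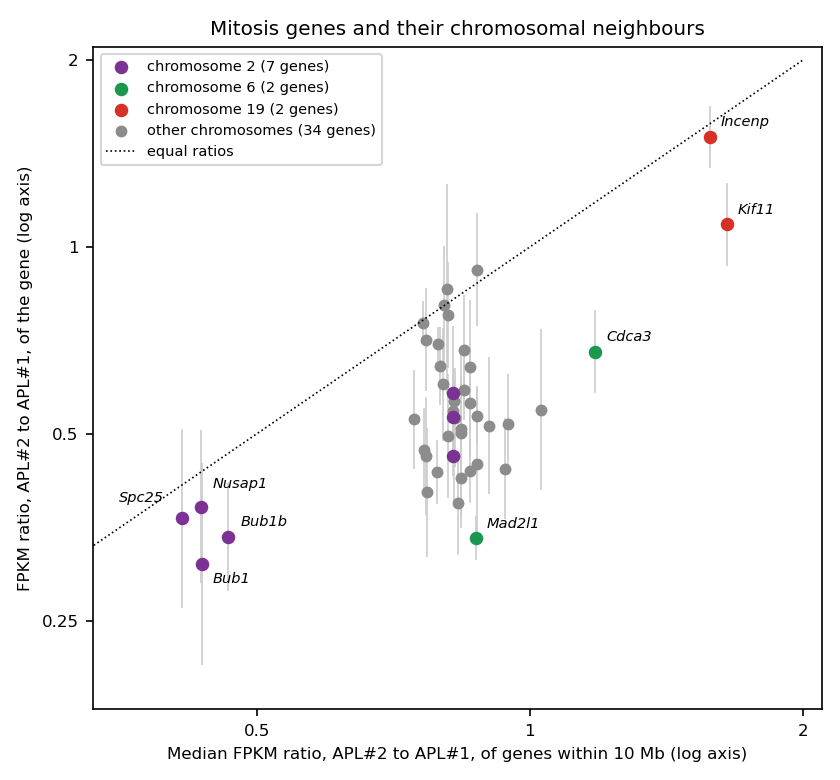
Ratio of FPKM in APL#2 to APL#1 of each mitosis gene (vertical log axis) against the median ratio of measured genes within 10 Mb (horizontal log axis); vertical lines are approximate 95% intervals for counting error only, and the dotted line marks equal ratios. 42 of 45 genes lie below the line, the 2 genes of chromosome 19 at the upper right and the 4 of the low stretch of chromosome 2 at the lower left.

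Other genes of cell division differed by class. Lists of other genes of the pathway are given first over measured genes, where a share of 50% below the all-gene median is the background. They are then given over every listed gene in the table, a reading added after the data were seen. Its nearest background is genes whose mean FPKM reached 0.2, of which 69% were lower and 37.1% lay below the all-gene median. Low genes are compressed on the log2(FPKM + 1) scale and tend to lie above the all-gene median of -0.17. Of 6 measured genes of the inner centromere and outer kinetochore network outside the set, 6 lay below it, with a median of -0.44. Pmf1, of the MIS12 complex, was at 5.48 FPKM in APL#1 and 2.91 in APL#2, Cenpb, a centromere DNA-binding protein, at 2.08 and 0.680, and Cenph at 1.57 and 0.906. Over all 26 genes of the list 24 were lower in APL#2, with a median of -0.08 and a median plain ratio of 0.580. The neighbours of Cenpb on chromosome 2 stood at 0.437. Of 6 other spindle and cytokinesis genes 5 lay below it, and the median of the list was -0.32. Ckap2l, a spindle protein also in the low stretch of chromosome 2, was at 1.87 and 0.524 FPKM, whereas Numa1, which anchors spindle poles, was at 2.38 and 2.28. Over all 26 genes 25 were lower, with a median of -0.11 and a median plain ratio of 0.557.

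Abundant tubulin genes were lower in APL#2, and low ones, some of them near 0, went both ways. Of 9 measured tubulins and gamma-tubulin complex genes, 7 were under the all-gene median, the list itself standing at -0.42. Tuba1b was at 23.7 FPKM in APL#1 and 11.9 in APL#2; tubulin genes have close copies among which reads may be split. Tubgcp3, of the complex that seeds microtubules, was at 1.03 and 1.22. Of the 8 genes under a mean FPKM of 1, 4 were lower. Tubb2b (0.0595 and 0.0765 FPKM), Tubb4a (0.00864 and 0.0160), Tubb6 (0.0341 and 0.0946) and Tubg2 (0.0599 and 0.00527) were near 0. The direction of these values says little. Over all 17 genes the median was 0.03, of the opposite sign, on a scale that compresses these low genes. Their median plain ratio was 0.698.

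Measured genes of 3 core complexes and their regulators stood near the all-gene median. Less abundant genes of condensin and of the anaphase-promoting complex list were all lower in APL#2. The anaphase-promoting complex list, which also holds the regulator genes Fzr1 and Fbxo5, had a median of -0.03 over 6 genes. Of these 3 lay below the all-gene median, Fzr1 among them. Its subunit gene Anapc5 was at 38.3 FPKM in APL#1 and 30.02 in APL#2, and Cdc26 at 6.67 and 7.09, whereas Fzr1, for the CDH1 activator, was at 2.89 and 1.36. The 16 genes of this list had a median plain ratio of 0.764, and 15 were lower, against 69% of genes whose mean FPKM reached 0.2. The 10 with a mean FPKM under 1 were all lower. Below the all-gene median lay 8 of the 16, against 37.1%. Condensin genes had a median of -0.02 over 4 measured genes, 2 of them below, with Smc4 at 4.24 and 3.73 FPKM, Ncapd3 at 1.25 and 1.03 and Ncaph2 at 2.20 and 1.42. The other 4 condensin genes, with a mean FPKM under 1, were all lower, with ratios of 0.381 (Ncaph), 0.447 (Ncapg), 0.558 (Ncapg2) and 0.582 (Smc2). Ncaph lies in the low stretch of chromosome 2 near Bub1, whose neighbours had a median ratio of 0.435. Over all 8 condensin genes the median was -0.13 and the median plain ratio 0.615. Cohesin genes had a median of -0.05 over 6 genes, 3 of them below, with Rad21 at 3.98 and 2.55 FPKM and Stag2 at 1.92 and 1.70. Of all 13 cohesin genes 11 were lower, with a median plain ratio of 0.802, beside 0.835 for measured genes. Their median on the log2(FPKM + 1) scale was 0.01, of the opposite sign. On that scale the 7 cohesin genes with a mean FPKM under 1 are compressed. No gene of these 3 lists was at least 2-fold different on the log2(FPKM + 1) scale.

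Transcription regulators of mitotic genes had a list median of -0.07 over 9 measured genes, 6 of them below the all-gene median. E2f8, a repressor of the E2F family, was at 3.79 FPKM in APL#1 and 1.91 in APL#2, Tfdp1, an E2F partner, at 4.86 and 4.22, and Nfya, an NF-Y subunit, at 1.27 and 1.19. Foxm1, the activator of late cell cycle genes, was at 1.67 and 1.03 FPKM, a ratio of 0.617, beside chromosome 6 neighbours at 1.18; it was named after its values were seen. Of all 20 regulators 19 were lower, with a median plain ratio of 0.730, beside 0.835 for measured genes. Their median on the log2(FPKM + 1) scale was 0.02, of the opposite sign. On that scale the 11 regulators with a mean FPKM under 1 are compressed.

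DNA replication genes, which act earlier in the cell cycle, also had lower levels in APL#2. Among 33 measured genes 31 were lower, against 71.6% of measured genes, and 27 were under the all-gene median, the list itself standing at -0.30, beside 30 of 32 and -0.41 for the measured mitosis genes. Pcna, the polymerase clamp, was at 10.3 FPKM in APL#1 and 3.74 in APL#2 and was the 1 gene of the list to reach a 2-fold lower value on the log2(FPKM + 1) scale; its chromosome 2 neighbours stood at 0.437. Tk1, thymidine kinase, was at 1.14 and 1.43 FPKM. Over all 50 genes 47 were lower, with a median of -0.18 and a median plain ratio of 0.616, beside -0.33 and 0.531 for the 45 mitosis genes. The difference between the lists was not tested.

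**Figure D5:**
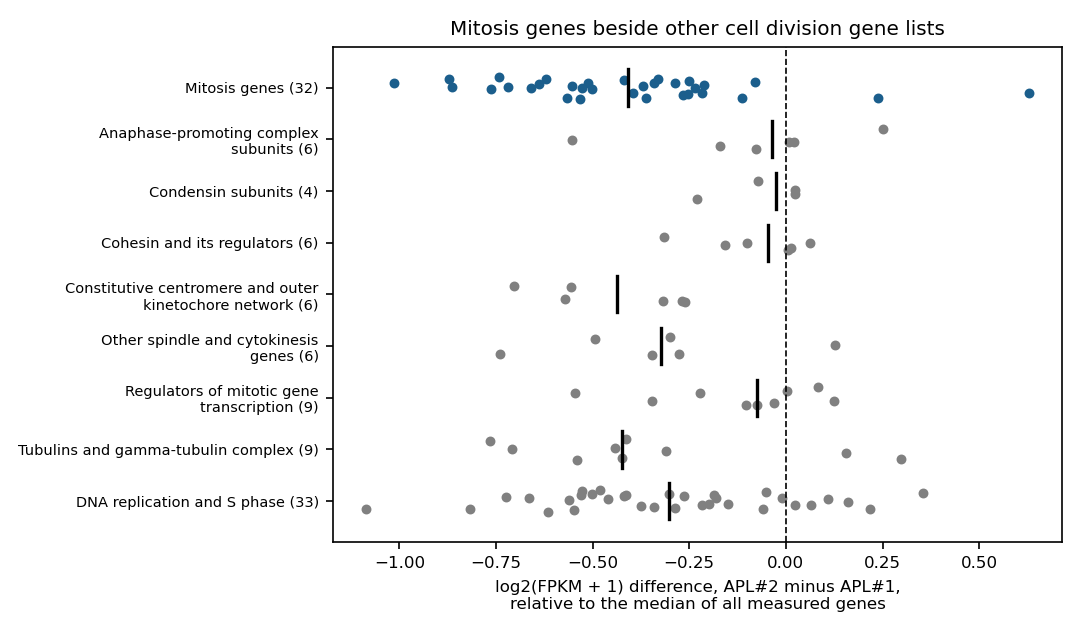
Difference on the log2(FPKM + 1) scale, APL#2 minus APL#1 and relative to the median of all measured genes (horizontal axis; dashed line at 0), for measured genes of the mitosis set (blue) and of 8 other lists (grey), with the number of genes in brackets; black bars are list medians, and vertical scatter only separates points. The bar lies at -0.41 for the mitosis genes, at -0.30 for DNA replication genes and between -0.05 and -0.02 for the anaphase-promoting complex, condensin and cohesin.

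Signs of other cell types were checked beside these values. Ptprc, which encodes CD45, was at 4.66 and 4.10 FPKM, so CD45 RNA was present in both. The 8 markers of promyelocytes and myeloid progenitors split into 4 below and 4 above the all-gene median, and their own median was -0.09. Lower in APL#2 were the granule genes Elane (32.4 and 5.01 FPKM), Mpo (661.8 and 157.3) and Prtn3 (3.45 and 2.45). Cd34 (7.52 and 4.40) and Kit (1.46 and 1.26) were also lower. Higher were Ms4a3 (7.85 and 15.9) and Ctsg (7.89 and 8.99). Ms4a3 lies on chromosome 19 near Incenp, whose neighbours had a median ratio of 1.58. Erythroblasts divide in mouse spleen; of 8 erythroid markers in the table, 7 were at or below 0.0504 FPKM in both libraries, with Klf1 at 0.0263 and 0.0243. The erythroid sum was 0.774 FPKM in APL#1 and 0.596 in APL#2, most of it Tfrc. Sums of 6 T cell and 8 B cell markers were 0.0526 and 0.268 FPKM in APL#1 and 0.261 and 0.519 in APL#2. NK cell markers were at or near 0 except Nkg7 (37.3 and 26.7 FPKM), with Ncr1 listed at 0 in both. The 7 macrophage markers did not move together: Emr1 (0.0230 and 0.537 FPKM), Vcam1 (3.94 and 7.47) and Csf1r (0.0667 and 0.101) were higher in APL#2, and Cd68 (1.54 and 1.01), C1qa, C1qb and Cd163 were lower. Their sums were 5.71 and 9.21 FPKM, most of it Vcam1. Megakaryocyte markers were at or near 0 except Itga2b (2.34 and 3.95 FPKM), and stromal markers except Pecam1 (3.62 and 1.62). The part of other cells in the lower level of mitosis genes was not tested.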

How the data were processed

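RNA was sequenced from 2 libraries, 1 per leukaemia, and groups were taken from the sample descriptions. Per the submitters' processing notes, Cuffdiff, Cufflinks and TopHat2 2.0.10 were used with build mm9. Strand, annotation and scaling are not stated there. The 2 value columns deposited by the authors were read as FPKM, because its columns are those that Cuffdiff writes per gene. The test statistic deposited by the authors is a score per gene, and p-value and q-value columns come from the same comparison, per the file headers; the implied standard error is the log2 ratio divided by that statistic. The difference of a gene is log2(FPKM + 1) of APL#2 minus that of APL#1, and plain ratios are given beside them. The members and gene lists were chosen with earlier results of these data known. All 45 members are named; from other lists, the most abundant gene, the largest difference each way and every gene at least 2-fold different. Neighbours are measured genes outside the set within 10 Mb of a gene's midpoint.

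Fragment numbers came from the steps between low values. Of 3140 genes with a mean FPKM under 0.2, the commonest ratio between libraries was 1.08, and 305 genes lay within 0.1% of it. In 31 of these with 1 GENCODE transcript, 1 fragment on 1 kb equalled about 0.0195 FPKM (APL#1) or 0.0180 (APL#2), so FPKM 1 on 2 kb stood for about 102.8 and 111.2 fragments. Fragments per member used its longest coding GENCODE transcript and are approximate. A transcript longer than the one behind the deposited value makes the fragments too many and the counting interval too narrow. This holds for Mad2l1, whose transcript of 7.557 kb was longer than its deposited locus of 5.524 kb. Calculations used Python 3.11.15, pandas 2.3.3 and scipy 1.17.1, and the scripts were tested on simulated data.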

Additional observations from a re-analysis of the deposited data

How the results depend on the processing

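No paired analysis was possible because each leukaemia has 1 library, and for the same reason no library could be left out. No median named here changed sign in any setting tried. The median of the mitosis genes relative to all genes, -0.33, was -0.58 with a pseudocount of 0.1, -0.42 with 0.5, -0.47 over members with a mean FPKM of at least 2, -0.50 without centring and -0.65 by plain ratio (an alternative added after the data were seen). Their median relative to chromosomal neighbours, -0.32, was -0.58, -0.43, -0.51 and -0.62 with those pseudocounts, that level and the plain ratio. The median of the DNA replication genes over all 50, -0.18, was -0.37 with a pseudocount of 0.1, -0.40 at a mean FPKM of at least 2, -0.35 without centring and -0.44 by plain ratio. A smaller pseudocount compresses low genes less. Members below the all-gene median, 40 of 45, were 19 of 20 at a mean FPKM of at least 2, where fewer members enter. The count at least 2-fold lower, 3, depended on the setting: it was 16 with a pseudocount of 0.1, 7 with 0.5, 17 by plain ratio, 1 without chromosomes 2, 6 and 19, and 1 relative to the all-gene median. Low fragment counts limit Bub1, Cenpm and Spc25 most.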
